A study of Homo sapiens with 6 samples.

Results

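Keratins are the intermediate filament proteins of epithelial cells. Each filament is built from pairs of 1 type I and 1 type II keratin, and the KRT8 and KRT18 pair is the basic one of simple epithelia, such as glandular and ovarian carcinoma cells, often joined by KRT7 and KRT19. KRT5, KRT15 and KRT17 are known from basal cells of layered epithelia, KRT10 from their upper layers, and KRT81 is a hair keratin. The epithelial keratins described here are 10 genes chosen by their gene name on the array, of 19247 genes with a symbol: the type I keratins KRT10, KRT15, KRT17, KRT18 and KRT19, and the type II keratins KRT5, KRT7, KRT8, KRT80 and KRT81. They have 16 probes among the 41000 on the array.

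The expression of these genes was measured on 6 Agilent arrays, each hybridized with 2 RNAs of established ovarian adenocarcinoma lines, 1 in Cy3 and 1 in Cy5. In SKOV3 cells, 4 arrays set RNA of the clones sh-S1 and sh-S2 against RNA of 1 Ctrl clone. Both clones were made with a lentiviral pLKO.1-puro vector carrying an shRNA against Hic-5 and selected in puromycin, and the Ctrl clone carried the same vector with a scramble sequence. In A2780s cells, 2 arrays set RNA of 1 stable pCMV-Hic-5 clone, which overexpresses Hic-5, against RNA of a clone with the empty vector. Each pair of RNAs was hybridized on 2 arrays with the dyes exchanged, so SKOV3 has n = 2 clones against a shared Ctrl RNA and A2780s has 1 clone and no test. Each RNA came from a single clone. Within A2780s, clonal differences and the effect of Hic-5 overexpression cannot be told apart. In SKOV3, a trait of the 1 Ctrl clone cannot be told apart from a trait common to sh-S1 and sh-S2.

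All values below are log2 ratios of clone over Ctrl unless a level is named. In SKOV3 a call needed a 2-fold change and an adjusted p from limma no higher than 0.05, with Benjamini-Hochberg adjustment over all 24958 probes tested. An A2780s probe was called where the mean ratio reached 1.5-fold with the same direction on both arrays, among 30531 probes. Median signals above local background on the SKOV3 arrays were 373 to 530.5 units in Cy3 and only 9.52 to 25.5 in Cy5, which limits the precision together with the small number of arrays. Pearson's r across probes, which are no independent replicates, was 0.892 and 0.895 between sh-S1 and sh-S2 in equal dye orientation and 0.610 and 0.606 between the dye-swapped arrays of 1 clone. Between the dye-swapped A2780s arrays r was lower, at 0.490. As in any bulk RNA, fewer cells of a type and less RNA per cell cannot be told apart.

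The targeted gene was checked first. TGFB1I1, which encodes Hic-5, had a ratio of -0.16 and 0.12 with sh-S1 in Cy5 and Cy3, and of -0.12 and 0.28 with sh-S2. The mean of 0.03 ± 0.07 (SD over n = 2 clones, adjusted p = 0.855 by limma) did not pass the test. The study's methods chose the clones by PCR and Western blot of Hic-5, which were not analysed here, so on these arrays the identity of the sh-S1 and sh-S2 RNAs and the direction of the SKOV3 ratios rest on the labels. In A2780s the ratios of TGFB1I1 were 4.05 and 2.60, a 10.0-fold higher mean level in the RNA labelled pCMV-Hic-5.

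The cell type markers do not all go with an ovarian carcinoma label. PAX8, a Müllerian lineage factor, was lower in SKOV3, the 1 call among the 3 of 6 ovarian carcinoma markers bright enough to be tested, at -3.58 ± 0.07 (SD over n = 2 clones, adjusted p = 2.85e-06 by limma). Its log2 level was 13.90 in the SKOV3 Ctrl, 10.32 in the clones, 8.86 in the A2780s Ctrl and 8.68 in pCMV-Hic-5. The epithelial adhesion genes CDH1 and EPCAM reached a signal well above background in only 2 of 4 Ctrl and 2 of 4 clone channels of SKOV3. Among 6 fibroblast markers COL3A1 rose, at 3.65 ± 0.33 (SD over n = 2 clones, adjusted p = 7.50e-06 by limma), and the other 3 tested were not called. PDGFRB was well above background in 0 of 4 Ctrl and 2 of 4 clone channels. The summed level of the 6 fibroblast probes was 1327 to 1715 intensity units in the SKOV3 Ctrl, 10512 to 14627 in sh-S1 and 6152 to 8884 in sh-S2, against 8495 to 10259 in the A2780s Ctrl and 8346 to 8649 in pCMV-Hic-5. The summed level of the 6 ovarian carcinoma probes moved the other way, from 12336 to 17911 in the SKOV3 Ctrl to 1929 to 2316 in sh-S1 and 1600 to 2458 in sh-S2, beside 1135 to 1180 in the A2780s Ctrl and 1059 to 1149 in pCMV-Hic-5. These sums add levels on the linear scale, so a single bright gene such as PAX8 can carry them. The median SKOV3 ratio was -0.02 over the tested ovarian carcinoma markers and 0.12 over the tested fibroblast markers. Of all probes tested in SKOV3, 4.16% were called lower and 2.98% higher. No leukocyte, endothelial or mesothelial marker was called in either line, with 5, 4 and 3 genes on the array, of which PTPRC was well above background in 2 of 4 channels of either SKOV3 group and PECAM1 in 1 of 4 Ctrl and 0 of 4 clone channels. At limma's unadjusted p under 0.05, 2 of the 3 mesothelial markers were lower in SKOV3 and none of the leukocyte markers tested passed. Of all probes tested in SKOV3, 20.9% were lower and 20.3% higher at that unadjusted p. KDR, the 1 endothelial marker bright enough to be tested, was higher at that unadjusted p by a mean log2 ratio of 0.23 (limma's adjusted p 0.116). Their part in the keratin ratios was not tested.

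Some of the probes described below are shown as the array design gives them, 5′ to 3′, with positions on hg19. The KRT8 and KRT80 probes shown were not called in SKOV3, where other probes of these genes were. Capitals mark the longest run, where it has at least 23 bases, that a probe shares with another probe labelled for a different transcript. Shorter runs are left unmarked, such as the 16 bases that KRT18 A_32_P151544 shares with an IL27 probe on the opposite strand. Coding-strand KRT18 probes come first because they moved in opposite directions in the SKOV3 and A2780s clones, followed by a KRT8 and a KRT7 probe from corresponding stretches of related genes, and the KRT80 probe that was lower in the A2780s clone.
KRT18 A_23_P99320 (chr12:53344612-53344671): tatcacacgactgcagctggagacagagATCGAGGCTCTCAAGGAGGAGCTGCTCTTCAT
KRT18 A_24_P42136 (chr12:53345577-53345636): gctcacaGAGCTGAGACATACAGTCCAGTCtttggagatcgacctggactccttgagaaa
KRT18 A_32_P151544 (chr12:53346116-53346554): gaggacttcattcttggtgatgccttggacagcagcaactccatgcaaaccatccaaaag
KRT8 A_24_P67395 (chr12:53294461-53294995): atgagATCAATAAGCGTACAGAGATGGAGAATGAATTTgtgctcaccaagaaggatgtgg
KRT7 A_23_P381945 (chr12:52631297-52632466): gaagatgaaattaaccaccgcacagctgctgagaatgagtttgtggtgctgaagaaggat
KRT80 A_24_P349264 (chr12:52567546-52574353): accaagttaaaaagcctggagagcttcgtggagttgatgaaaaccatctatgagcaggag
Where the range is longer than the 60 bases of the probe, the probe spans an exon junction. The KRT8 and KRT7 probes matched at 39 of 56 aligned bases without gaps. KRT8 and KRT18 are neighbours on chromosome 12, where all type II members lie, and the other type I members lie on chromosome 17.

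In SKOV3, 6 of the 10 keratins were lower in the clones than in the Ctrl and none was higher. Of the 16 probes, 14 passed the filter on dim signal and 9 of these were called lower, where 4.16% of all probes tested were called lower. The members were chosen with earlier results of these data known, so such shares are no test of keratins as a group. No member probe was called higher by limma, where 2.98% of all probes were, and at an unadjusted p under 0.05, 12 member probes were lower and 0 higher, where 20.9% and 20.3% of all probes were. Without the fold threshold, 12 probes passed the adjusted p, all lower, where 16.2% of all probes were lower and 15.6% higher. The 14 probes had a median ratio of -1.84, beside 0.00 over all probes tested. The called genes were KRT18, KRT19 and KRT10 among the type I and KRT8, KRT7 and KRT80 among the type II keratins. A gene counted as called where any of its probes was. KRT80 counted through A_24_P331704 alone, the dimmer of its probes over the 6 arrays. KRT5, KRT15 and KRT81 were not called, and KRT17 was too dim to test. By type, 5 of the 6 type I probes tested were called lower, with a median of -2.34, and 4 of the 8 type II probes, with a median of -1.10. The difference between the types was not tested.

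KRT18, the type I keratin of simple epithelia, had the largest ratios of the members on 2 of its 4 probes. On A_32_P151544, its brightest probe, the ratio was -3.44 with sh-S1 in Cy5, -3.75 with sh-S1 in Cy3, -3.89 with sh-S2 in Cy5 and -3.01 with sh-S2 in Cy3. The mean of -3.53 ± 0.10 (SD over n = 2 clones) corresponded to an 11.5-fold lower level, with a standard error of 0.10 and limma's adjusted p = 3.30e-06. The log2 level of this probe was between 14.06 and 15.06 in the 4 Ctrl channels, 11.52 and 11.06 in sh-S1 and 11.17 and 11.05 in sh-S2. The channels of an RNA are repeated readings of it.

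On A_23_P99320 the 4 ratios were -2.83, -3.18, -2.67 and -3.20 in the same order, with a mean of -2.97 ± 0.05 (SD over n = 2 clones, adjusted p = 5.21e-06 by limma). On A_24_P42136 they were -2.16, -2.22, -2.43 and -1.74, with a mean of -2.14 ± 0.07 (SD over n = 2 clones, adjusted p = 1.60e-05 by limma). These 3 probes read the coding strand, and they were lower on all 4 arrays. The remaining KRT18 probe, A_24_P924957, was designed from a partial EST, and its coordinates run against those of the other 3 (chr12:53346570-53346630), so it reads the opposite strand. It gave -0.05, 0.24, -0.30 and 0.14, and its log2 level was 6.88 to 7.27 in the Ctrl and 6.87 to 7.16 in the clones, too dim to enter the test.

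KRT8, the type II partner of KRT18, was lower on 2 of its 3 probes. A_23_P14072, the brightest, gave -1.94 and -2.66 with sh-S1 in Cy5 and Cy3, and -1.34 and -2.61 with sh-S2. The mean was -2.14 ± 0.23 (SD over n = 2 clones, adjusted p = 3.29e-05 by limma), a 4.41-fold lower level. The log2 level of the probe was 13.07 to 13.56 in the Ctrl, 10.90 and 11.13 in sh-S1 and 10.80 and 11.89 in sh-S2.

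A_32_P175098, which the array annotation also assigns to a KRT8 pseudogene, gave -1.54 ± 0.16 (SD over n = 2 clones, adjusted p = 9.26e-05 by limma). A_24_P67395, in the coding sequence shown above, was well above background in 2 of 4 clone channels and gave only -0.38 ± 0.02 (SD over n = 2 clones, adjusted p = 0.0213 by limma), under the fold threshold. Its value moved with the processing, to -0.74 with median centring in place of loess and to -1.71 on the processed signals of Feature Extraction, where it was called lower. With 1 value for the gene, the mean over the 3 KRT8 probes was -1.35.

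KRT19, a type I keratin of simple epithelia, was lower on every SKOV3 array. Its probe A_23_P66798 gave -2.29 and -2.83 with sh-S1 in Cy5 and Cy3 and -2.53 and -2.54 with sh-S2. The mean of -2.55 ± 0.02 (SD over n = 2 clones, adjusted p = 7.88e-06 by limma) was a 5.84-fold lower level. The Ctrl channels lay between 13.35 and 13.71 on the log2 level scale and the clone channels between 10.81 and 11.25.

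KRT7, a type II keratin of simple and ductal epithelia, gave -1.63 and -2.24 with sh-S1 in Cy5 and Cy3 and -1.98 and -2.93 with sh-S2. Its mean was -2.20 ± 0.37 (SD over n = 2 clones, adjusted p = 7.14e-05 by limma), a 4.59-fold lower level. Of the called members KRT7 had the largest difference between the clones, with sh-S2 lower than sh-S1 by 0.52 on the log2 scale. With 1 RNA per clone this difference has no test.

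KRT80, a type II keratin found in many differentiating epithelia, was read by a pair of probes that differed in size. Over the 6 arrays A_24_P349264 was the brighter, while in the SKOV3 Ctrl its mean log2 level was 9.72 beside 11.35 on A_24_P331704. A_24_P331704 near the end of the transcript gave -1.83, -2.69, -2.01 and -2.41, with a mean of -2.24 ± 0.03 (SD over n = 2 clones, adjusted p = 1.26e-05 by limma). A_24_P349264 in the coding sequence gave -0.89, -0.22, -0.89 and -0.62, with a mean of -0.65 ± 0.14 (SD over n = 2 clones, adjusted p = 0.00328 by limma). It was lower on all 4 arrays and passed the adjusted p, but not the fold, except on Feature Extraction's processed signals, where it reached -1.15 and was called.

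KRT10, a type I keratin of the upper epidermis, stood at the edge of the fold threshold. It gave -1.61 and -0.30 with sh-S1 in Cy5 and Cy3 and -1.40 and -0.91 with sh-S2, so the dye orientation moved it more than the clone did. The mean was -1.05 ± 0.15 (SD over n = 2 clones, adjusted p = 0.000425 by limma), a 2.08-fold lower level. On the arrays with the clone in Cy3 alone the mean was -0.60 and KRT10 was not called. The nearest probe outside the threshold was KRT80 A_24_P349264, described above, at 1.57-fold lower. KRT15, a basal cell keratin, was farther from it, at -0.44 ± 0.27 (SD over n = 2 clones, adjusted p = 0.0313 by limma). The ratios of KRT15 were 0.17, -0.66, -0.15 and -1.11, near 0 with the clones in Cy5 and below 0 with the clones in Cy3.

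KRT5, the basal cell type II keratin, gave -0.05 ± 0.04 (SD over n = 2 clones, adjusted p = 0.766 by limma). KRT81 gave -0.04 ± 0.07 (SD over n = 2 clones, adjusted p = 0.792 by limma), although its probe was well above background in every channel, with log2 levels of 10.10 to 10.58 in the Ctrl and 10.09 to 10.59 in the clones. KRT17, a keratin of basal and stressed epithelia, was dim, with a signal well above background in 2 of 4 Ctrl and 1 of 4 clone channels. Its ratios lay between -0.21 and 0.02. The KRT17 probe matched a KRT14 probe at 52 of 56 aligned bases, so the signals of these genes may not separate, and that KRT14 probe was too dim to test as well.

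**Figure D1:**
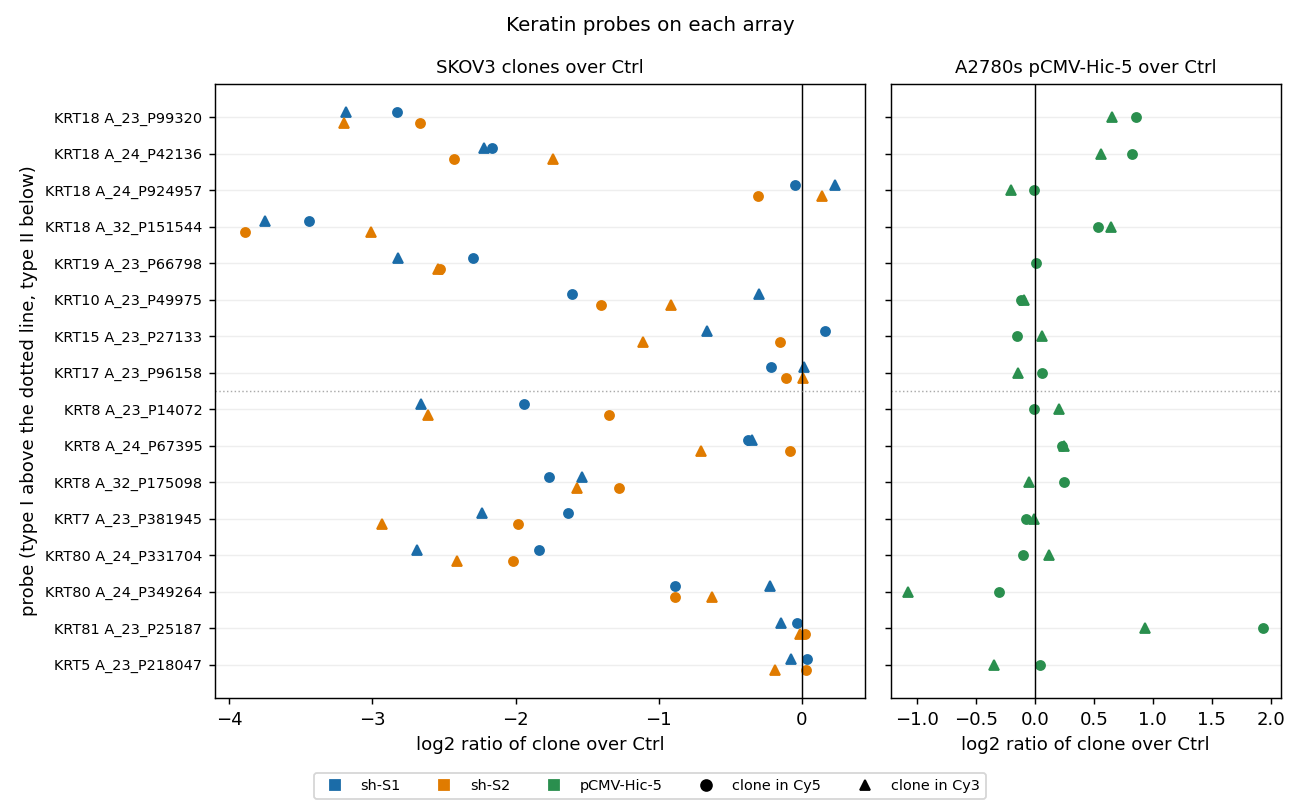
Log2 ratio of clone over Ctrl (x axis) for each of the 16 keratin probes (y axis) on each array, with the SKOV3 clones on the left and the A2780s clone on the right; colours mark the clone and symbols the dye of the clone. The 3 coding-strand KRT18 probes lie between -3.89 and -1.74 in SKOV3 and between 0.54 and 0.86 in A2780s, and KRT19 has 1 point in A2780s because the other spot was left out.

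Both clones were close to each other on the called probes. The difference sh-S2 minus sh-S1 was between 0.03 and 0.15 for KRT19, KRT80 A_24_P331704 and the 3 coding-strand KRT18 probes, where sh-S2 was the less reduced clone. It was 0.32 for KRT8 A_23_P14072 and 0.23 for KRT8 A_32_P175098. KRT10 and KRT7 were lower in sh-S2, by -0.21 and -0.52. The Ctrl RNA was shared, so an error in it, or a trait of the Ctrl clone, would shift sh-S1 and sh-S2 together.

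In the A2780s clone with Hic-5 overexpressed, KRT18 and KRT81 were higher than in the Ctrl and KRT80 was lower on 1 probe. Of the 16 probes, 11 passed the filter on both arrays, and 4 were called higher, where 3.26% of all probes were. Lower was 1 probe, where 1.32% of all probes were. The median over the 11 probes was 0.10, beside -0.01 over all probes tested. These are values of 1 clone, with no replicate check.

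The 3 coding-strand KRT18 probes were higher on both A2780s arrays. A_23_P99320 gave 0.86 and 0.66 (clone in Cy5, then Cy3), a 1.69-fold mean. A_24_P42136 gave 0.82 and 0.57, a 1.62-fold mean, and A_32_P151544 gave 0.54 and 0.65, a 1.51-fold mean. The opposite-strand probe A_24_P924957 gave 0.00 and -0.20. The KRT18 means lay close to the 1.5-fold threshold, and with normexp fitted on all spots they were 0.57, 0.55 and 0.56, just under it. KRT8, the partner of KRT18, was not called here, with 0.00 and 0.21 on A_23_P14072 and 0.24 and -0.05 on A_32_P175098.

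KRT81 had the largest A2780s ratio of the members, 1.93 in the first orientation and 0.93 in the second, a 2.70-fold higher mean. The Ctrl channels of KRT81 were at 9.27 in Cy3 and 10.53 in Cy5 on the log2 level scale and the clone channels at 11.20 and 11.47. These channels are repeated readings of 1 Ctrl and 1 clone RNA. KRT86 and KRT83, the closely related hair keratins, were at -0.01 and 0.09 on their own probes, the latter too dim to be tested. KRT80 A_24_P349264 gave -0.30 and -1.07, a 1.61-fold lower mean that rested on the second orientation. The other KRT80 probe, A_24_P331704, was well above background in 1 of 2 channels of either RNA and gave -0.10 and 0.12.

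KRT10 gave -0.12 and -0.09, KRT5 0.05 and -0.35, and KRT15 -0.15 and 0.06, and none of these was called. KRT7 was not well above background in the pCMV-Hic-5 channels and was so in 1 of 2 Ctrl channels, with ratios of -0.07 and -0.01. KRT17 was also too dim to enter. KRT19 had 1 usable array, with 0.01 where the clone was in Cy5. On the other A2780s array its spot lay on a blemish, with a local background of 65174 in Cy5 and 4946 in Cy3, against array medians of 49 and 43. The deposited log10 ratio of that spot, 1.73, would make KRT19 53.7-fold lower in the clone, and it was left out here.

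**Figure D2:**
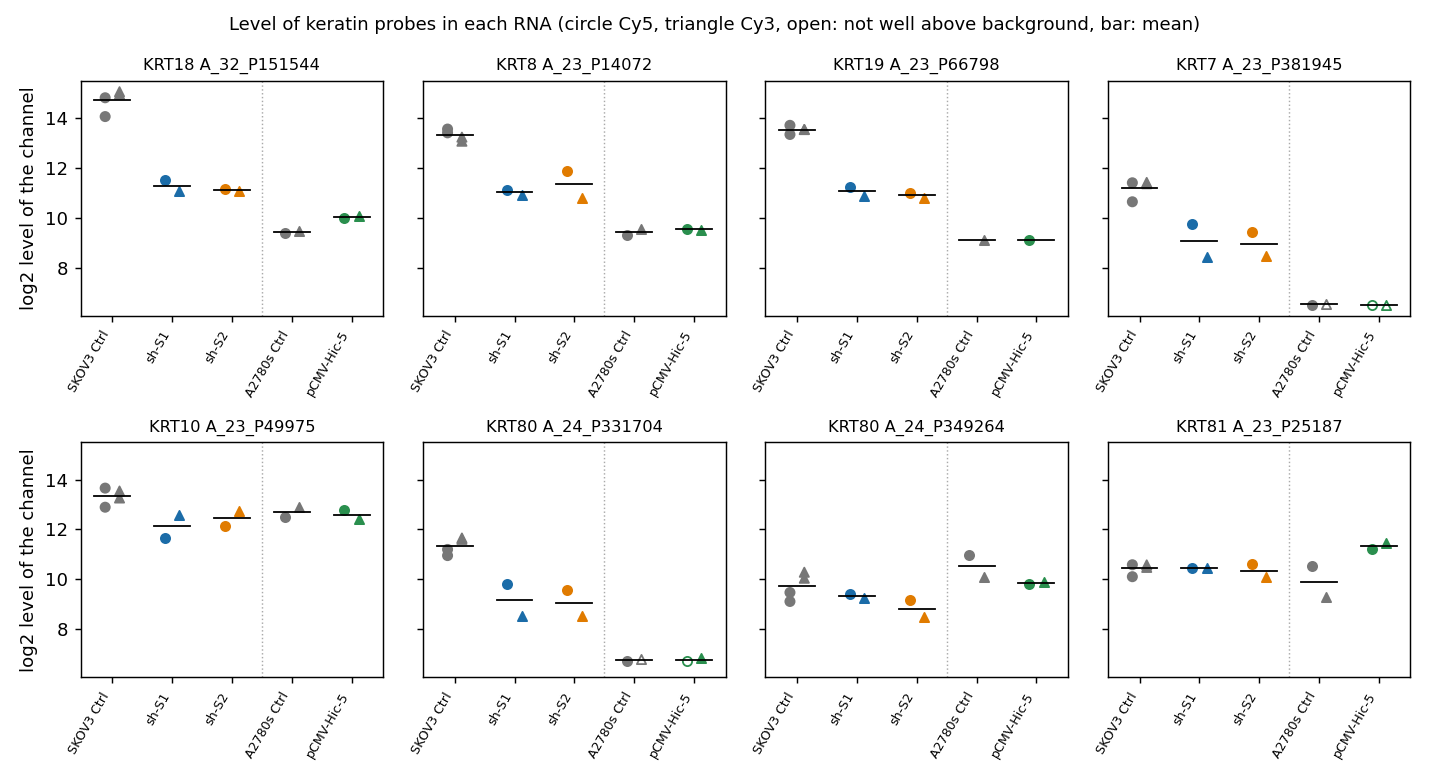
Log2 level of each channel after loess and Aquantile normalization (y axis) in the 5 RNAs (x axis) for 8 probes; circles are Cy5, triangles Cy3, open symbols channels not well above background, and bars the mean. The clones sh-S1 and sh-S2 lie below the SKOV3 Ctrl for KRT18, KRT8, KRT19, KRT7 and KRT80 A_24_P331704, while KRT81 lies at the same level in all SKOV3 RNAs and above the Ctrl in pCMV-Hic-5.

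Set side by side, the lines differed in their keratin levels, although each line had a slide of its own, so line and slide cannot be told apart. The mean log2 level of KRT18 A_32_P151544 was 14.73 in the SKOV3 Ctrl, 11.29 in sh-S1, 11.11 in sh-S2, 9.43 in the A2780s Ctrl and 10.03 in pCMV-Hic-5. That of KRT8 A_23_P14072 was 13.32, 11.02, 11.35, 9.43 and 9.53 in the same order. KRT7 was at 11.21, 9.07, 8.95, 6.54 and 6.50, with the last one not well above background. For these genes, as for PAX8 above, the SKOV3 clones lay between the SKOV3 Ctrl and both A2780s RNAs. Whether the sh-S1 and sh-S2 RNAs hold RNA of SKOV3 cells alone was not tested. KRT19 was at 13.54, 11.07 and 10.91 in SKOV3 and, on 1 array each, at 9.11 in the A2780s Ctrl and 9.12 in pCMV-Hic-5. KRT15 was at 9.06, 8.75, 8.49, 7.73 and 7.69, and KRT5 at 7.60, 7.47, 7.62, 7.75 and 7.60, a range no wider than the spread between the channels of 1 RNA. KRT80 A_24_P349264 had another order, 9.72, 9.32, 8.82, 10.54 and 9.85, with its highest mean in the A2780s Ctrl. KRT10 ran from 13.34 in the SKOV3 Ctrl to 12.12 in sh-S1, and the channels of the SKOV3 clones, 11.65 to 12.75, overlapped with those of both A2780s RNAs, 12.42 to 12.89.

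Other probes carry KRT18 and KRT8 sequence under different names, and they were looked at because such paralogs and pseudogenes can share signal. Of the probes matching a KRT18 probe in at least 80% of 30 or more aligned bases, 3 are labelled for other transcripts. They gave -2.74, -2.10 and -2.30 in SKOV3 and were all called lower, with limma's adjusted p between 1.17e-05 and 3.63e-05, and they were called higher in A2780s. The one that shares the run of 32 bases marked above gave -1.90, -2.33, -2.02 and -2.14 in SKOV3 and 0.64 and 0.59 in A2780s. The probe named for the pseudogene KRT18P55 moved likewise, at -3.18 ± 0.24 (SD over n = 2 clones, adjusted p = 7.63e-06 by limma) in SKOV3 and 0.72 in A2780s. KRT8P41 gave -1.31 ± 0.18 (SD over n = 2 clones, adjusted p = 0.000188 by limma) and -0.02. The 4 probes matching a KRT8 probe by the same rule gave -0.37, -0.83, -0.01 and -0.25 in SKOV3, the last of these on the opposite strand, and none was called in either line, with the latter pair too dim to be tested in SKOV3. Which transcript gave the signal of these probes cannot be read from the array. Of 6 pseudogene names, 4 were tested in SKOV3 and 5 in A2780s. Called were 2 as lower in SKOV3 and 1 as higher in A2780s, where 4.16% and 3.26% of all probes were. The other 4 names were not called or were too dim to be tested.

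Of 43 further keratin genes on the array, 20 were tested in SKOV3 and 22 in A2780s, and none was called in either line. Of all probes, 4.16% were called lower and 2.98% higher in SKOV3, and 1.32% and 3.26% in A2780s. These genes are the keratins left after the members were chosen with earlier results of these data known. The contrast with the members is therefore no independent comparison. At limma's unadjusted p under 0.05, 2 of the 20 were lower and 1 higher in SKOV3, where 20.9% and 20.3% of all probes were. Their SKOV3 ratios had a median of -0.01 and lay between -0.47 for KRT86 and 1.08 for KRT222, a keratin-like gene whose adjusted p from limma was 0.0572. That mean rested on 1 clone, as KRT222 gave 0.22 in sh-S1 and 1.94 in sh-S2. Only KRT86 passed the adjusted p, at 0.0191. In A2780s the median was -0.07, with a range of -0.24 to 0.50.

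Desmosomes anchor keratin filaments at the cell surface. Of the 16 genes tested from the desmosome and anchoring list, 4 were called lower in SKOV3 and none higher, with a median of -0.19. Over all probes tested, 4.16% were called lower and 2.98% higher in SKOV3, and 1.32% and 3.26% in A2780s. PERP, a desmosome membrane protein, gave -4.05 ± 0.45 (SD over n = 2 clones, adjusted p = 9.71e-06 by limma). PKP3 gave -2.49, ITGA6, a hemidesmosome integrin, -1.98, and DSP, the plakin that binds keratin, -1.92. In A2780s, 19 were tested, with JUP higher at 0.65 and COL17A1 lower at -1.19, and a median of -0.03. JUP passed the adjusted p in SKOV3 as well, at 0.59 and limma's adjusted p = 0.00376, under the fold threshold. So did COL17A1 at -0.97, PLEC at -0.87 and DST at -0.84, all lower, with limma's adjusted p between 0.000749 and 0.00107. At limma's unadjusted p under 0.05, 7 of the 16 were lower and 1 higher, where 20.9% and 20.3% of all probes were.

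Among the other intermediate filament genes, 3 of 13 tested were higher in SKOV3 and 1 lower, where 2.98% and 4.16% of all probes were. NEFH, a neurofilament subunit, rose by 3.23 ± 0.07 (SD over n = 2 clones, adjusted p = 4.02e-06 by limma), NES, the nestin gene, by 1.48 and LMNB1, a nuclear lamin, by 1.17, while LMNA fell by 1.42. NEFH was called lower in A2780s, at -0.65, on arrays giving -1.16 and -0.15. The brighter of the VIM probes, which reads vimentin, the filament of mesenchymal cells, gave 1.15 and -0.50 with sh-S1 in Cy5 and Cy3 and 1.40 and -0.37 with sh-S2, so its direction turned with the dye. Its mean was 0.42 (limma's adjusted p = 0.0185). The other VIM probe was above 0 on all 4 arrays with a mean of 0.67, and neither passed the fold threshold. The list had a median of -0.06 in SKOV3 and -0.02 in A2780s, where 16 were tested.

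Of the factors known to act on epithelial genes, 8 were tested in SKOV3 and 2 were lower, with a median of -0.12. Of all probes, 4.16% were called lower in SKOV3 and 3.26% higher in A2780s, so 1 call in a list this short says little. KLF5 gave -1.03 on its brighter probe and -2.71 on the other. CEBPB gave -1.13 ± 0.78 on its brighter probe (SD over n = 2 clones, adjusted p = 0.0111 by limma), with -1.69 in sh-S1 and -0.58 in sh-S2. In A2780s that probe was higher at 2.02, the 1 call among 11 tested there, where the median was 0.04. The other CEBPB probe, well above background in every channel, was called in neither line. It gave 0.02 in SKOV3 (adjusted p = 0.924 by limma) and 0.22 in A2780s. HSPB1, a small heat shock protein that associates with keratins, was the 1 of 10 keratin-binding genes called in SKOV3, at -1.79 (limma's adjusted p = 3.42e-05), and the list had a median of -0.18 there and 0.01 in A2780s with no call. Of the products of stratified epithelium, 0 of 7 were called in SKOV3 by limma, none of them at an unadjusted p under 0.05 either, with a median of -0.04. At that unadjusted p, 20.9% of all probes were lower and 20.3% higher. CSTA, a cysteine protease inhibitor, was the 1 of 9 called in A2780s, at 1.00, with a median of -0.03.

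**Figure D3:**
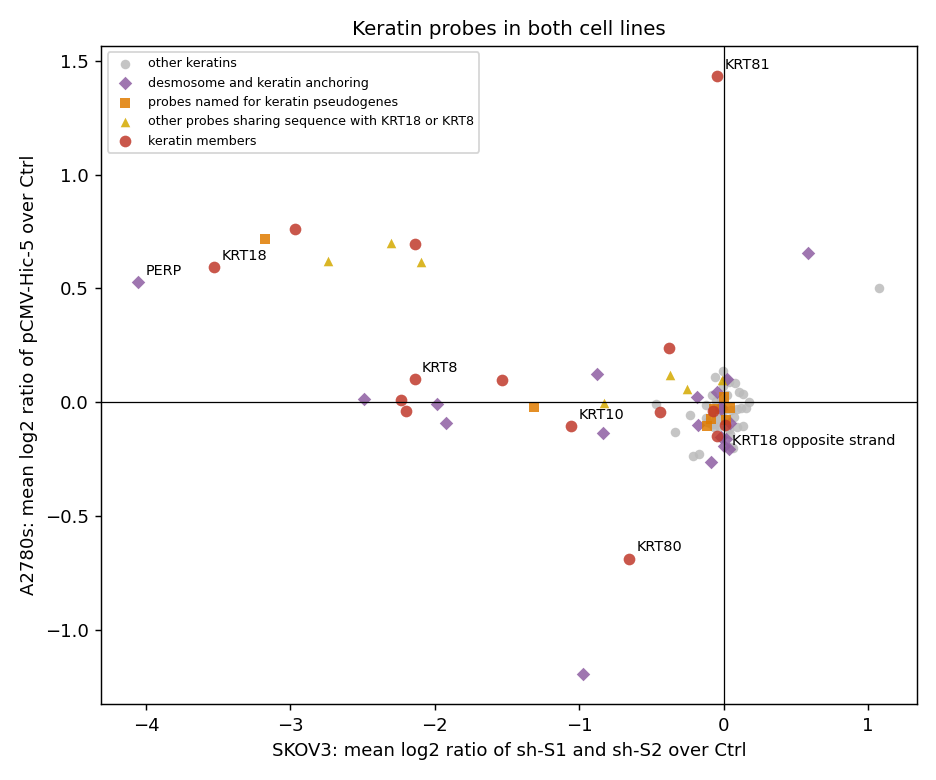
Mean log2 ratio in SKOV3 (x axis) against mean log2 ratio in A2780s (y axis), 1 point per probe, for keratin members, other keratins, probes named for keratin pseudogenes, probes sharing sequence with KRT18 or KRT8, and desmosome genes, with dim probes included. The 3 coding-strand KRT18 probes and the 3 probes sharing their sequence lie at upper left, the KRT8, KRT7 and KRT80 A_24_P331704 probes near 0 on the y axis, and KRT19 is absent because it lacks an A2780s mean.

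The genes whose 6 ratios were most like those of KRT18 A_32_P151544, by Euclidean distance among 13595 genes tested in both lines, were DKK3 at a distance of 1.26, SQOR at 1.30, SPANXD at 1.37, IFI27 at 1.37 and AKR1C1 at 1.41. Their SKOV3 means lay between -3.79 and -3.05. The genes most like KRT8 A_23_P14072 were SYNGR2 at 0.50, ITM2B at 0.60, FTHL17 at 0.61, CAV2 at 0.62 and MOK at 0.62, with SKOV3 means between -2.29 and -2.02. SPANXD, AKR1C1 and FTHL17 have near-identical relatives and are uncertain as to the gene read. KRT8 itself stood at 3.26 from KRT18, which would be rank 133 among these genes seen from KRT18 and rank 1171 seen from KRT8. This distance also counts the size of the ratios, which differed between probes of the same gene. In SKOV3, KRT18 A_24_P42136 had a mean of -2.14 beside -3.53 on A_32_P151544. The ranks therefore do not show that the filament partners had unlike patterns.

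**Figure D4:**
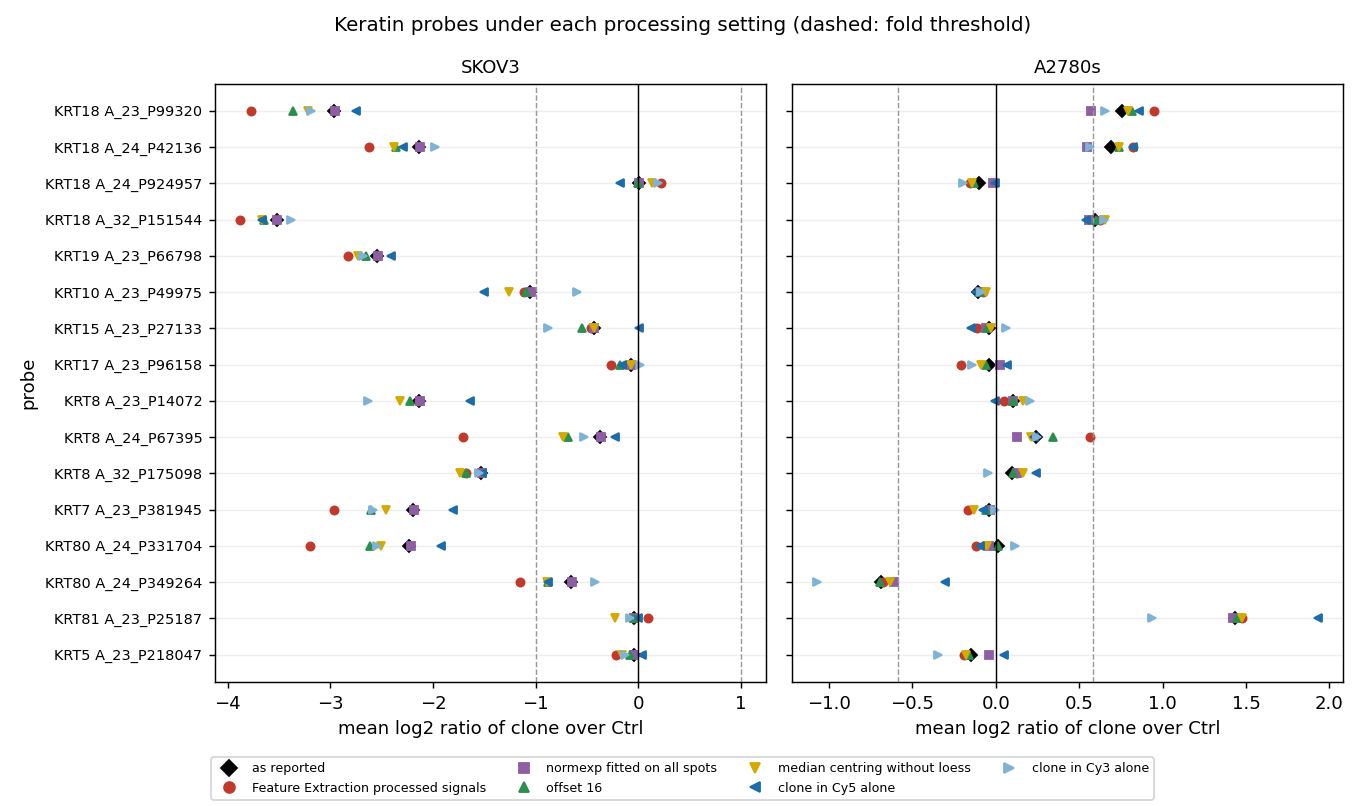
Mean log2 ratio of clone over Ctrl (x axis) of each keratin probe (y axis) under the reported processing and 6 alternatives, with the fold thresholds dashed. The SKOV3 values of the 3 coding-strand KRT18 probes, KRT19, KRT7, KRT8 A_23_P14072 and KRT80 A_24_P331704 stay beyond the threshold in all of them, while the A2780s values of those KRT18 probes cross it.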

How the data were processed

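The authors deposited spot intensities of both dyes from Agilent Feature Extraction (10.7.3.1 in the file headers, 8.5.1.1 in the submitters' processing notes), with their software's processed intensities, and log10 ratios (Cy5 over Cy3, the dye swaps left unturned) that were the same in the deposited series values up to rounding. The paper names no background correction, normalization or test.

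Mean intensities were corrected with limma 3.58.1 (R 4.3.3; normexp, offset 50) and normalized by loess within arrays. Control spots, outlier spots and 40 spots with a local background over 1000 on 1 A2780s array were left out. All log2 ratios were turned so that the clone stands over the Ctrl. SKOV3 arrays of a clone were averaged and tested against 0 with lmFit and eBayes, which leaves out the Ctrl's own spread. A2780s had no test. A probe entered when its signal was well above background in every Ctrl channel of the line, or in both channels of a clone. The rules were tested on simulated data. Levels per channel followed Aquantile normalization.

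Every member probe is named. A gene of a list is represented by its brightest probe over the 6 arrays, and list genes called in either line are named, up to 6 per list. The lists were other keratins, keratin pseudogenes, desmosome and anchoring genes, other intermediate filaments, factors of epithelial genes, keratin-binding genes, stratified epithelium products and cell type markers. Members and lists were chosen with earlier results of these data known. Positions are those of the files, and RefSeq (GRCh38.p14) was used for names only. P-values rest on the spread between the 2 clone RNAs, which limma draws toward the spread over all probes tested, with a prior of 5.57 degrees of freedom. KRT19, with an SD of 0.02 over the clones, had a standard error of 0.09. The spread between the clone RNAs may in part be technical.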

Additional observations from a re-analysis of the deposited data

How the results depend on the processing

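The counts of SKOV3 keratin probes called lower (8 to 12) and higher (0) stayed within 1.5 times of the reported 9 and at 0 under all alternatives run. In A2780s the 4 probes called higher became 1 with normexp fitted on all spots and 2 when 1.5-fold was asked on each array, and the 1 probe called lower became 0 with the clone in Cy5 alone and 0 when 1.5-fold was asked on each array. No ratio of a called probe changed sign, with sh-S1 or sh-S2 left out as well. In SKOV3, KRT10 lost its call with the clone in Cy3 alone, and KRT8 A_24_P67395 and KRT80 A_24_P349264 gained one on Feature Extraction's signals. The mean over all probes of a gene gave -1.35 for KRT8, -2.16 for KRT18 and -1.44 for KRT80. With the spot on the blemish kept, an alternative chosen after seeing the data, KRT19 in A2780s would be at -2.89. Over all probes, SKOV3 calls were 1038 lower and 743 higher, and 2356 and 1971 on Feature Extraction's signals. A block for the slide was not run, since the arrays of a line share 1 slide. Every value is a ratio that pairs a clone with its Ctrl within an array. No paired analysis was possible beyond that because the replicate numbers only name these arrays. Dim Cy5 signal limits KRT17, KRT8 A_24_P67395 and the opposite-strand KRT18 probe.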
